A study of Mus musculus with 50 samples.

Results

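The transcriptome of Ezh2 KO mouse embryonic stem cells (ESCs), in which EZH1 is the remaining H3K27 methyltransferase, was compared with that of wild-type (WT) cells across all 18055 genes of the deposited table of normalized counts. The comparison used 4 of the 50 samples of the series, 2 RNA-seq libraries of each line, and the other 4 RNA-seq libraries served as a reference. All lines derive from the male ESC line E14TG2a and were grown without feeder cells on gelatin, in medium with serum, LIF and the 2i inhibitors. The Ezh2 KO line is a clone in which a pair of guide RNAs with Cas9 excised the whole gene. In the Ezh1/2 dKO line both genes were removed. The Ezh1KO Ezh2Y726D line lacks Ezh1 and carries a point mutation that makes EZH2 catalytically inactive. Each mutant line is a clone, so that a difference between lines holds the difference between clones as well as between genotypes, and these cannot be told apart. The study's methods speak of biological replicates in general. For the 2 RNA-seq libraries of a line the labels name no separate cultures or clones, so that the p-values measure the spread between these libraries and may not cover the spread between clones.

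Polycomb repressive complex 2 (PRC2) methylates lysine 27 of histone H3. Its catalytic subunit is EZH2 or EZH1, and EED and SUZ12 are needed for activity with either of them. The trimethylated form, H3K27me3, marks the promoters of silent developmental genes in ESCs, among them the Hox clusters and many lineage transcription factors, and EZH1 is known as the weaker enzyme.

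Values are normalized counts, that is, reads per gene divided by a size factor for the library, for which the whole reads could be recovered, and are given as replicate 1 and replicate 2 of each line. A gene was tested if its mean over the 8 libraries was at least 5, and it was called if its adjusted p was under 0.1 and its absolute log2 fold change was at least 1 (limma, fitted to all 8 libraries). Fold changes with a standard error (SE) are on the scale of log2(normalized count + 1). The libraries held 3604123 to 5181553 reads, and the table lists 15660 to 17104 genes above 0 in each. The log2 values of the replicates correlated across genes with an r of 0.953 in WT and 0.973 in Ezh2 KO, and 1941 and 1182 genes differed by at least 1 on the log2 scale between the replicates of these lines.

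Libraries that stood apart were found in both lines, with genes that were chosen after their values were seen. WT replicate 1 held 2118 Egr1, 1876 Fos and 389.5 Fosb, genes that cells switch on within minutes of a stimulus, where each of the other 7 libraries had at most 10.7, 75.5 and 7.99. All 8 genes of an immediate early list were highest in this library, and their summed level was 6529 in WT replicate 1 and 790.5 to 954 elsewhere. Genes of the intestinal epithelium were found in WT replicate 2 and in both Ezh2 KO libraries. Fabp1, a fatty acid carrier of enterocytes, was at 93.4 in WT replicate 2 and at 53.3 and 104.5 in Ezh2 KO. It was listed at 0 in WT replicate 1 and in the 4 libraries of the other lines. Of 20 genes of an intestinal list, 7 were at 0 in WT replicate 1, Ezh1/2 dKO and Ezh1KO Ezh2Y726D, among them Agr2, Fabp2 and Lgals2, and the summed level of the list was 522 in WT replicate 2, 292 and 502 in Ezh2 KO, and 64.0 to 149.9 in the other 5 libraries. None of the 8 immediate early genes and none of the 10 intestinal genes tested was called between Ezh2 KO and WT. In Ezh1KO Ezh2Y726D the summed level of 7 Y-linked genes was 23.2 and 23.5, against 1798 to 2370 in the other libraries. The part of these sets in the results was not tested, and counts without each library are given below.

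Ezh2 was at 598 and 546 in WT and at 1.05 and 0.968 in Ezh2 KO (2 reads in both libraries together against 1015). The fall was 565-fold with a 95% counting interval of 156 to 4669, and the log2 fold change was −8.16 ± 0.39 (SE, adjusted p = 4.7e-05, n = 2 libraries per line). The gene spans chr6:47480273-47545340 (mm9). Intervals of this kind cover counting error only. Ezh1 was at 227 and 377 in WT and at 372 and 378 in Ezh2 KO, with a log2 fold change of 0.36 ± 0.35 (adjusted p = 0.815), so that no change of the remaining enzyme's transcript was detectable. Leaving out WT replicate 1 moved this value to −0.0083. The transcripts of Eed and Suz12 differed by −0.08 ± 0.14 and 0.15 ± 0.15. Of the 7 PRC2 accessory and 27 PRC1 genes tested none was called by limma (1 PRC1 gene higher and 1 lower at an unadjusted p under 0.05), and Jarid2, the accessory subunit gene with the highest mean level, was at 2166 and 2890 in WT and at 3439 and 2779 in Ezh2 KO. Of the 10 tested genes within 500 kb of Ezh2 none was called, with log2 fold changes from −1.89 to 0.31.

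Few genes passed the test. Of the 13872 genes tested, 13 were higher (0.0937%) and 43 lower (0.31%) in Ezh2 KO than in WT, and 42 were lower when Ezh2 itself is set aside. At an unadjusted p under 0.05 there were 573 higher and 652 lower genes. The median log2 fold change over all genes tested was −0.01, and the medians of chromosomes 1 to 19 and X lay between −0.08 and 0.02. The calls depended on single libraries. Of the 43 lower genes, 41 had a higher value in WT replicate 1 than in WT replicate 2. Over all genes tested the median of that difference was 0.01 on the log2 scale. Without WT replicate 1, 4 of the 13 higher and 9 of the 43 lower genes were still called, and without Ezh2 KO replicate 2 none of the higher and 6 of the lower genes were. Those left after the omission of each library in turn were Ezh2, Zscan4a, Arhgef26, Gm13119 and Gm8994. With a single library left in a line, its spread is taken from the other lines.

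**Figure D1:**
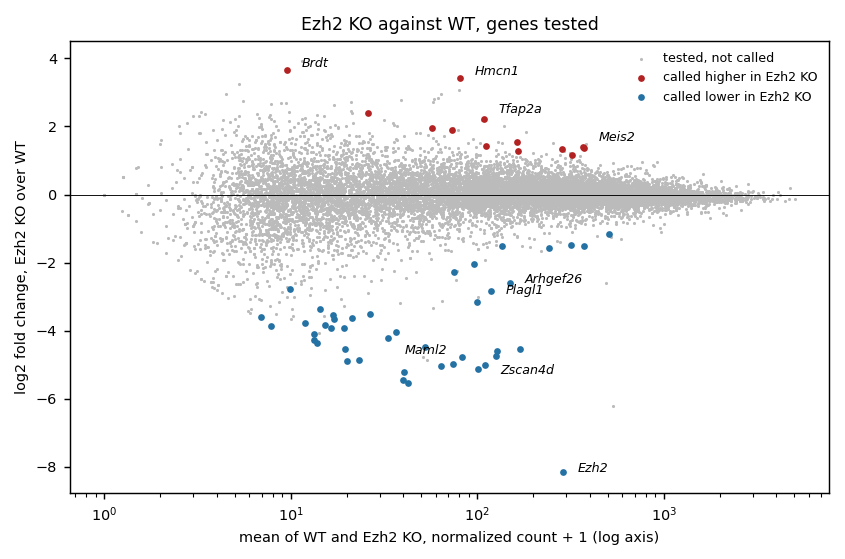
Log2 fold change between Ezh2 KO and WT (vertical axis) against the mean normalized count + 1 of both lines (horizontal log axis), 1 point per gene tested. The 13 genes called higher are red, the 43 called lower are blue and the rest grey, and Ezh2 lies lowest at −8.16.

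Among the 13 genes called higher were Meis2, Meis1, Tfap2a and Hmga2. Meis2, a TALE homeodomain factor that pairs with HOX proteins, was at 204 and 209.9 in WT and at 551 and 518 in Ezh2 KO (log2 fold change 1.36 ± 0.19, adjusted p = 0.0262). Its relative Meis1 was at 29.3 and 16.4 in WT and at 101.4 and 77.4 in Ezh2 KO (1.96 ± 0.36, adjusted p = 0.0909). Tfap2a, a transcription factor of ectoderm, neural crest and trophoblast, was at 24.0 and 54.9 in WT and at 170.4 and 179 in Ezh2 KO (2.23 ± 0.38, adjusted p = 0.0758). In all of these genes the Ezh2 KO libraries lay above both WT libraries, which the call largely requires, and 2493 of the 13872 genes tested did so. Hmga2, an architectural chromatin protein of embryonic cells and a let-7 target, rose from 179 and 220.5 to 427 and 463 (1.16 ± 0.19, adjusted p = 0.0568). In Ezh1/2 dKO the levels were 347 and 325 for Meis2, 178 and 129 for Meis1, 153 and 121 for Tfap2a, and 438 and 370.3 for Hmga2. These 4 genes had peaks of SUZ12 and H3K27me3 in WT and a peak of HA-EZH1, the tagged human protein put back into Ezh1/2 dKO cells, within 5 kb of a transcription start. H3K27me3 was still listed in Ezh2 KO at Meis1 and Tfap2a and no longer at Meis2 and Hmga2.

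The 250 bases before the start of these 4 genes are shown because PRC2 in ESCs occupies CG-rich promoters. They are RefSeq sequences of GRCm38.p6, printed 5′ to 3′ on the strand of the gene, with each CG dinucleotide in capitals.
Meis2, chr2:116064620-116064869, - strand: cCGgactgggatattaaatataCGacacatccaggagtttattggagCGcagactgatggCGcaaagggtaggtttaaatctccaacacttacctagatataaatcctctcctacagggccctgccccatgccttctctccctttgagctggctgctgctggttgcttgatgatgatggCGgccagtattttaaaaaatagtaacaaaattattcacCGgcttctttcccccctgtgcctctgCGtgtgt
Meis1, chr11:19018970-19019219, - strand: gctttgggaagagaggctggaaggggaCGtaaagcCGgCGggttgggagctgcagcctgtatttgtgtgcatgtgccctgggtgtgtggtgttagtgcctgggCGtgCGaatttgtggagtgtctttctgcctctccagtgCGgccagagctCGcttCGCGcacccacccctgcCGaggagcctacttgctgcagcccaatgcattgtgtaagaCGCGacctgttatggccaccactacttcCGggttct
Tfap2a, chr13:40734921-40735170, - strand: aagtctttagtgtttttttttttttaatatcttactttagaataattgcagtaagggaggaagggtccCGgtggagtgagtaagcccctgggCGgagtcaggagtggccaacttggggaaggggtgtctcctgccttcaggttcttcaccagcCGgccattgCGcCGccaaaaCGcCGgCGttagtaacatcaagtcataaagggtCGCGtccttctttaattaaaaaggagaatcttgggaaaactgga
Hmga2, chr10:120476470-120476719, - strand: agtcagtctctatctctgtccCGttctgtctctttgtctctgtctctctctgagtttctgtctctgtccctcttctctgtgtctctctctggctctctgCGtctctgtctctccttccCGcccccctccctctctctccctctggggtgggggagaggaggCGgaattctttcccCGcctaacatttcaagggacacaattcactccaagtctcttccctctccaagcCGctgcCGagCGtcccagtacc
They hold 7, 13, 10 and 8 CG in this order. Over the 10916 tested genes with a promoter in the RefSeq table the median was 15 CG, and 72.2% of them held at least 10, against 37.8% of all 32851 promoters in it. The 12 called higher genes with a promoter there had a median of 9 CG.

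The remaining higher genes were of several kinds. Hmcn1, a large extracellular matrix protein, was at 14.7 and 10.6 in WT, at 109 and 186 in Ezh2 KO, at 209 and 159 in Ezh1/2 dKO, and at 15.2 and 11.2 in Ezh1KO Ezh2Y726D (3.41 ± 0.39, adjusted p = 0.0109). Its levels in Ezh1KO Ezh2Y726D lay close to those of WT. Of the 44 tested members of the germline list 2 were called higher, where 0.0937% of all genes tested were, and at an unadjusted p under 0.05 there were 9 higher and 3 lower. This list was chosen with earlier results of these data known, so that its share is not independent of those results. Brdt, a testis-specific bromodomain protein, was at 0 and 0.963 in WT, at 17.8 and 15.5 in Ezh2 KO and at 51.9 and 67.5 in Ezh1/2 dKO (3.65 ± 0.56, adjusted p = 0.0403). The rise rested on 33 reads against 1, a ratio of 29.7 with a counting interval of 4.96 to 1206. Nxf7, an X-linked member of the RNA export factor family, was at 6.67 and 7.70 in WT, at 38.7 and 46.4 in Ezh2 KO and at 167 and 255 in Ezh1/2 dKO (2.41 ± 0.40, adjusted p = 0.0633). Nxf7 has close relatives on the X chromosome with which reads may be shared. Neither germline gene had a SUZ12 or H3K27me3 peak listed in WT. The authors kept ChIP-seq reads that aligned uniquely, so that a peak at Nxf7 may be missed.

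Lpl, lipoprotein lipase, was at 224 and 182 in WT, at 507 and 553 in Ezh2 KO, at 886 and 910.1 in Ezh1/2 dKO, and at 360.2 and 314 in Ezh1KO Ezh2Y726D (1.39 ± 0.16, adjusted p = 0.0124). Cers4, a ceramide synthase, rose from 97.4 and 70.3 to 238 and 246 (1.54 ± 0.21, adjusted p = 0.0223). The lowest Ezh2 KO value of each lay well above the highest WT value. Atp6v0a4, a subunit of the vacuolar proton pump, rose from 41.4 and 21.2 to 123 and 104.5, with a log2 fold change of 1.90 ± 0.34. Aldh1b1, a mitochondrial aldehyde dehydrogenase, Spats2l and Fam213a (now Prxl2a) rose by 1.35, 1.42 and 1.28 on the log2 scale. Hmcn1, Lpl and Meis2 were the higher genes called under each of the 11 settings with all libraries, and none of the 13 was called without each library in turn. Of the 12 higher genes with a matched position, 7 had an H3K27ac peak in Ezh2 KO, where 59.9% of all matched genes tested had one, and 4 had an HA-EZH1 peak, against 10.8%.

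**Figure D2:**
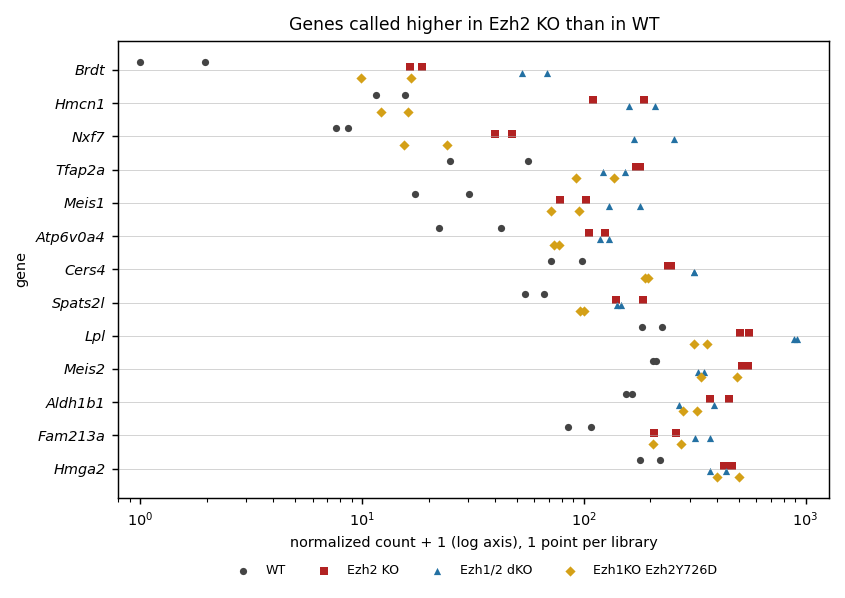
Normalized count + 1 (horizontal log axis) of the 13 genes called higher in Ezh2 KO (rows), 1 point per library, with the lines in colours and symbols. Both Ezh2 KO libraries lie to the right of both WT libraries in each row, which the call largely requires. Hmcn1 in Ezh1KO Ezh2Y726D lies at the WT level (15.2 and 11.2).

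A large group of the lower genes belonged to the 2-cell-like programme. The cells of this name are a rare and passing state of ESC cultures in which genes of the mouse embryo at zygotic genome activation are transcribed, with the Zscan4 cluster and the homeodomain factor Dux as its best known markers. Of the 16 tested genes of this list 9 were lower in Ezh2 KO (Zscan4a, Zscan4c, Zscan4d, Zscan4e, Zscan4f, Dux, Arg2, Tdpoz3 and Usp17lc), against 0.31% of all genes tested. In 14 of the 16 both Ezh2 KO libraries lay below both WT libraries, where 2445 of all 13872 genes tested did so. The median log2 fold change of the list was −3.71. Its members were chosen with earlier results of these data known, so that these shares are not independent of those results. In bulk RNA, fewer cells of a type and less RNA per cell cannot be told apart.

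The sum of the 6 Zscan4 genes stood at 1065 and 490.1 in WT and at 20.9 and 22.3 in Ezh2 KO. It was 929 and 1380 in Ezh1/2 dKO and 87.4 and 210.3 in Ezh1KO Ezh2Y726D. The libraries without either enzyme overlapped those of WT, and the libraries with inactive EZH2 lay between WT and Ezh2 KO. Zscan4d was at 301 and 125 in WT and at 5.23 and 4.84 in Ezh2 KO, a fall of 39.6-fold (counting interval 21.3 to 83.3) with a log2 fold change of −5.02 ± 0.54 (adjusted p = 0.00899). Zscan4a was at 331 and 156 in WT and at 7.32 and 7.74 in Ezh2 KO (−4.74 ± 0.44, adjusted p = 0.00465). Dux, which activates this programme, was at 36.0 and 23.1 in WT, at 0 and 2.90 in Ezh2 KO, at 48.6 and 63.0 in Ezh1/2 dKO, and at 5.35 and 3.36 in Ezh1KO Ezh2Y726D. The Dux value in Ezh2 KO rested on 3 reads, which gives a ratio of 18.9 with an interval of 6.12 to 94.8. The Zscan4 genes are near-identical copies, so that the share of reads of each member is uncertain, while their sum depends less on it.

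The WT libraries differed in this programme, as in most of the genes called lower. All 16 genes were higher in WT replicate 1, the library with the high immediate early genes, than in WT replicate 2, with a median ratio of 2.15. Without WT replicate 1, 3 members were still called lower, and the log2 fold change of Zscan4d was −4.39. Without Ezh2 KO replicate 2, 1 was called, and Zscan4d was at −4.97. The number of calls thus moved while the fall of Zscan4d, 1 member of the list, stayed large. Eif1a, a translation initiation factor gene, was the list member that stayed close to WT, at 2161 and 1831 in WT and at 1943 and 1744 in Ezh2 KO (−0.11 ± 0.14).

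The promoters of a pair of Zscan4 genes are shown for comparison of their CG content.
Zscan4c, chr7:11005495-11005744, + strand: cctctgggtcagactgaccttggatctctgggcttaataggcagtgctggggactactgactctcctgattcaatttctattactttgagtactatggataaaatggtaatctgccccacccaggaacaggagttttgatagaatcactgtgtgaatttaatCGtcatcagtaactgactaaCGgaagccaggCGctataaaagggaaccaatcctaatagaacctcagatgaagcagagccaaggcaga
Zscan4d, chr7:11166149-11166398, - strand: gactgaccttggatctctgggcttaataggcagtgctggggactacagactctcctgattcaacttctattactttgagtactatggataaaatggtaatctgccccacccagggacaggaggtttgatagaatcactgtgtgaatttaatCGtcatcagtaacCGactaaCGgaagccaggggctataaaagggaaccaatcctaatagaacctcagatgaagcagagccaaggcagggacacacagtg
Each holds 3 CG, and the 4 called members of the list with a RefSeq promoter had a median of 3. None of the called members but Arg2 had a SUZ12 or H3K27me3 peak listed in WT near a start, although Zscan4a has no matched position. The authors kept ChIP-seq reads that aligned uniquely, so that peaks at near-identical copies may be missed. The absence of a listed peak at these genes is therefore not taken as a trait of their chromatin.

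Further lower genes belong to multicopy families of the early embryo, and their counts share the uncertainty of near-identical copies. Gm13119, Gm12794 and A430089I19Rik are Pramel genes in current RefSeq (Pramel31, Pramel19 and Pramel39), and Gm10696 is a TD-POZ gene (Spopfm2). Gm13119 was at 101.4 and 63.5 in WT, at 2.09 and 0 in Ezh2 KO, at 149 and 187 in Ezh1/2 dKO, and at 9.81 and 13.4 in Ezh1KO Ezh2Y726D (−5.53 ± 0.57, adjusted p = 0.0077). Gm8994 (now Eif4a3l1) fell from 291 and 102 to 3.14 and 4.84 (−5.14 ± 0.47, adjusted p = 0.00465). Gm8994 was at 396 and 522 in Ezh1/2 dKO and at 70.4 and 96.2 in Ezh1KO Ezh2Y726D. For both genes Ezh1KO Ezh2Y726D lay between WT and Ezh2 KO, as for the Zscan4 sum. Unlike that sum, both Ezh1/2 dKO libraries lay above both WT libraries. BC080695, Gm5662, Gm1995, Gm8300, Gm4971, Gm2022, Gm2016, Gm11544, Gm5039, Tmem92 and Sp110 were also called lower. Of the 43 lower genes, 19 had at most 3 reads in Ezh2 KO and 5 had 0. For Gm1995, with 0 reads in Ezh2 KO, the lower limit of the counting interval of the fall was 17.9-fold.

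**Figure D3:**
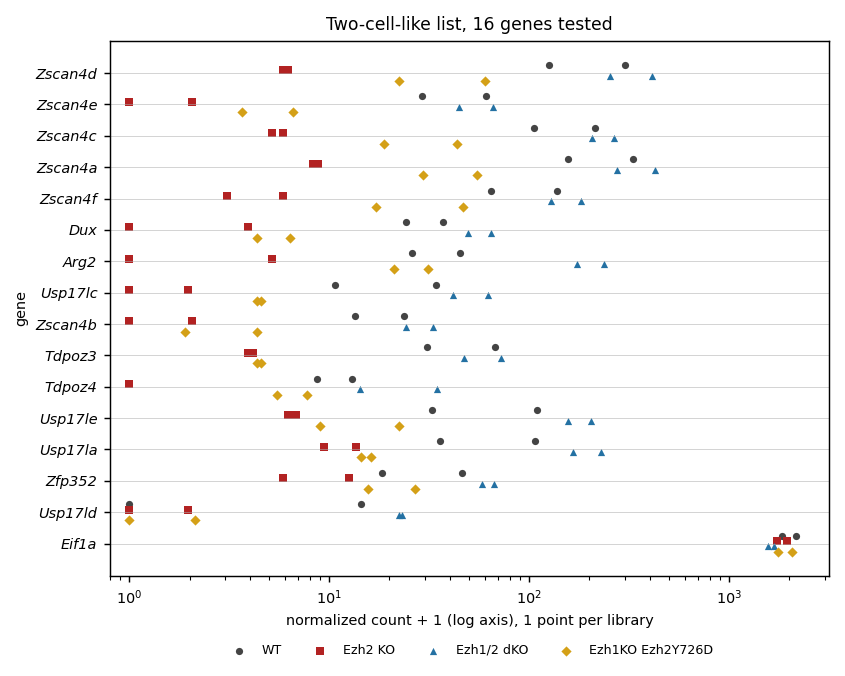
Normalized count + 1 (horizontal log axis) of the 16 tested genes of the 2-cell-like list (rows), 1 point per library, with the lines in colours and symbols. Both Ezh2 KO libraries lie left of both WT libraries in 14 rows (2445 of all 13872 genes tested), and Eif1a, at 1744 to 2161 in these libraries, is the row that barely spreads.

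Some of the lower genes carried Polycomb peaks in WT. SUZ12 or H3K27me3 was listed within 5 kb of a start in WT for 13 of the 38 lower genes with a matched position, where 19.9% of the 13532 matched genes tested had such a peak. H3K27me3 was listed in Ezh2 KO for 16 of the 38, against 13.0%. An HA-EZH1 peak was listed for 9 of the 38, against 10.8%, and an H3K27ac peak in Ezh2 KO for 4, against 59.9%. Peaks at multicopy genes among the 38 may be missed. The −log10 p of the H3K27me3 peak at Aldh1a2 was 22.4 in WT and 367 in Ezh2 KO. The paper reports reduced H3K27me3 at Polycomb promoters in Ezh2 KO, so that the lists of the lines are not on a common scale. A peak listed in Ezh2 KO alone is therefore not taken as a gain. Arhgef26, a guanine nucleotide exchange factor of RhoG, was at 252 and 257 in WT and at 37.6 and 45.5 in Ezh2 KO, a fall of 6.11-fold (counting interval 4.83 to 7.82) with a log2 fold change of −2.59 ± 0.24 (adjusted p = 0.00465). It was at 217 and 307 in Ezh1/2 dKO and at 167 and 183 in Ezh1KO Ezh2Y726D, so that Ezh2 KO was the line with the lowest level. Aldh1a2, which makes retinoic acid from retinaldehyde, was at 127 and 119.4 in WT, at 25.1 and 24.2 in Ezh2 KO, at 72.5 and 84.4 in Ezh1/2 dKO, and at 48.1 and 20.1 in Ezh1KO Ezh2Y726D (−2.27 ± 0.41, adjusted p = 0.086). Trib2, a pseudokinase, was at 20.01 and 12.5 in WT and at 1.05 and 1.94 in Ezh2 KO. Both lines with a change in Ezh1 had higher Trib2 values, at 23.1 and 27.5 in Ezh1/2 dKO and at 29.4 and 43.6 in Ezh1KO Ezh2Y726D.

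Dcc, the netrin receptor, and Inpp4b, a phosphoinositide phosphatase, had no reads in Ezh2 KO. Dcc was at 41.4 and 7.70 in WT and Inpp4b at 42.7 and 8.67, so that the WT replicates differed widely between themselves. The lower limits of the counting intervals of the falls were 11.2-fold and 11.8-fold. Pnma2, Cacna1s and Fam124a were lower by 1.51, 3.53 and 3.36 on the log2 scale. These genes, with Arhgef26, Aldh1a2, Trib2, Dcc, Inpp4b and Arg2, had SUZ12 and H3K27me3 in WT and H3K27me3 in Ezh2 KO. Cobll1 had H3K27me3 without SUZ12 in both lines, Sp110 had H3K27me3 in WT alone, and Shroom4 and Ptrf (now Cavin1, a caveola protein) had SUZ12 without H3K27me3 in WT and an H3K27me3 peak in Ezh2 KO. Ptrf was at 538 and 397 in WT and at 139 and 198 in Ezh2 KO.

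The promoters of Aldh1a2 and Trib2 are shown as the CG-rich examples of this set.
Aldh1a2, chr9:71215539-71215788, + strand: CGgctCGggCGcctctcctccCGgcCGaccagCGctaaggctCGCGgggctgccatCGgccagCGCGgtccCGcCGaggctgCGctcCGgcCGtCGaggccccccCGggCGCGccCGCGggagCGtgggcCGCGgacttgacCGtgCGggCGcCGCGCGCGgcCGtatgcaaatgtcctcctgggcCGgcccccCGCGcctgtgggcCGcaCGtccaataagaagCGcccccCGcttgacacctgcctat
Trib2, chr12:15816786-15817035, - strand: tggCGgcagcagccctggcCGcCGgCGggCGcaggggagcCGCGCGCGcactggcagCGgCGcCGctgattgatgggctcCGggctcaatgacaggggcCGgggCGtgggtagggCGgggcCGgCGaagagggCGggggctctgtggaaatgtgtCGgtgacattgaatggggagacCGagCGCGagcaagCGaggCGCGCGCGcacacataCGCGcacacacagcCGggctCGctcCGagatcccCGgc
They hold 40 and 34 CG, and the 10 genes of the set with a RefSeq promoter had a median of 15.5, near the 15 of all genes tested.

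**Figure D4:**
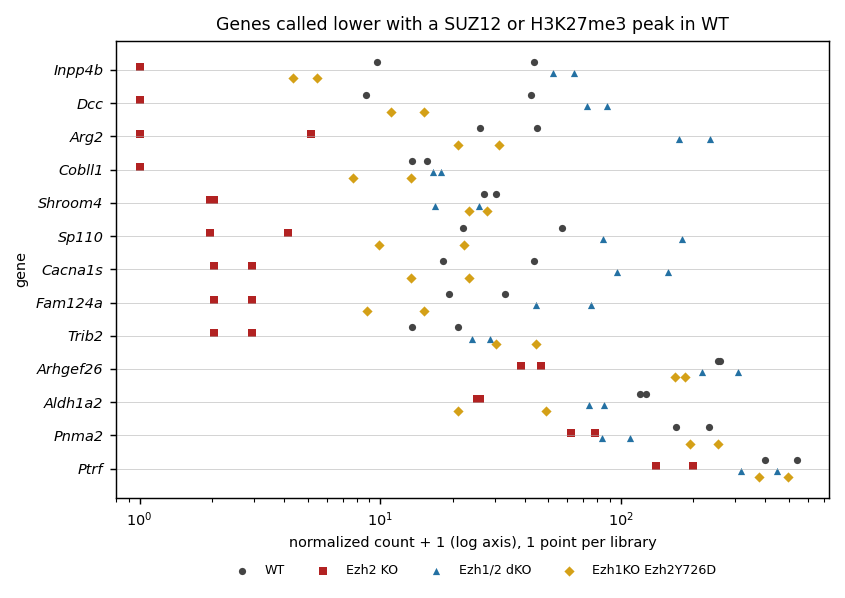
Normalized count + 1 (horizontal log axis) of the 13 called lower genes with a SUZ12 or H3K27me3 peak in WT (rows), 1 point per library, with the lines in colours and symbols. Arhgef26 in Ezh2 KO (37.6 and 45.5) lies apart from all other libraries, while Dcc and Inpp4b are at 0 there.

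Other lower genes had no SUZ12 or H3K27me3 peak in WT. Of these, Plagl1, Smoc1, Prps2 and Dux had an H3K27me3 peak listed in Ezh2 KO, which is likewise not taken as a gain. Maml2, a coactivator of Notch, was at 153 and 131 in WT, at 4.18 and 2.90 in Ezh2 KO, at 18.96 and 9.77 in Ezh1/2 dKO, and at 8.02 and 2.24 in Ezh1KO Ezh2Y726D (−4.99 ± 0.60, adjusted p = 0.0128). Plagl1, an imprinted zinc finger gene that is expressed from the paternal copy, was at 227 and 187 in WT, at 23.0 and 33.9 in Ezh2 KO, at 88.2 and 69.3 in Ezh1/2 dKO, and at 6.24 and 11.2 in Ezh1KO Ezh2Y726D (−2.84 ± 0.39, adjusted p = 0.0223). WT stood above every mutant library for both. Smoc1, a secreted modulator of BMP signalling, fell from 378 and 348 to 123 and 119.02 (−1.57 ± 0.19, adjusted p = 0.0124). Prps2, of phosphoribosyl pyrophosphate synthesis, fell from 651 and 460.2 to 191 and 188 (−1.53 ± 0.20, adjusted p = 0.018), and was at 562 and 492 in Ezh1/2 dKO. Def6 and Pdk1, the kinase that inhibits pyruvate dehydrogenase, fell by 2.04 and 1.15 on the log2 scale. Plagl1 was the called member among 30 tested imprinted genes, which had a median of −0.24 with 1 higher and 6 lower at an unadjusted p under 0.05. Pdk1 was the called member among 25 of glycolysis and hypoxia, and 0.31% of all genes tested were called lower.

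Genes grouped by the chromatin of their promoter differed in their typical change, which is given as a description. Peaks came from 1 ChIP-seq library per line and target, so that a peak that is not listed may have been too weak at an unknown depth. Of 2314 genes with SUZ12 and H3K27me3 in WT and H3K27me3 kept in Ezh2 KO, 1356 passed the filter on low values, and their median log2 fold change was −0.22. In single libraries the median difference to the WT mean was −0.27 and −0.13 in Ezh2 KO. Within this state 2 were called higher (0.147%) and 9 lower (0.664%), where 0.0937% and 0.31% of all genes tested were. The 350 tested genes with SUZ12 and H3K27me3 in WT and no H3K27me3 listed in Ezh2 KO, of 392, had a median of 0.20, with 0.09 and 0.38 in the libraries, and 2 of them (Meis2 and Hmga2) were higher (0.571%) and none lower. The 568 genes with H3K27me3 alone that was no longer listed in Ezh2 KO had a median of 0.09, and the 193 with H3K27me3 alone that was kept had −0.16. Genes with neither peak had a median of −0.01 over 10836. With SUZ12 and H3K27me3 in WT, the median WT level was 16.6 where H3K27me3 was kept and 56.7 where it was no longer listed. It was 234 with neither peak, and the part of level in these differences was not tested.

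The median fell with the strength of the H3K27me3 peak that was left in Ezh2 KO. When genes of the kept state were split into 5 groups of nearly equal size by the −log10 p of this peak, the medians from the weakest to the strongest group were −0.01, −0.12, −0.30, −0.51 and −0.58, over 350, 308, 260, 241 and 197 genes tested. With a mean of at least 5 over WT and Ezh2 KO as well, they were −0.01, −0.08, −0.27, −0.49 and −0.49. Expression differed along the same order: the median WT level was 22.9 in the weakest and 8.63 in the strongest group, and its part in the trend was not tested. The 400 tested genes with SUZ12 in both WT and Ezh2 KO had a median of −0.55. Of these, 3 were called lower (0.75%) and none higher, against 0.31% and 0.0937% of all genes tested, and 99.8% had an HA-EZH1 peak. The 1535 with SUZ12 in WT alone had a median of −0.04. Among genes with SUZ12 in WT, the 491 with H3K27ac in Ezh2 KO had a median of 0.08 and the 1444 without it −0.20. Their median WT levels were 93.3 and 16.2. In the groups with SUZ12 in both lines and in WT alone the levels were 12.9 and 29.9. The part of expression level in these differences was not tested.

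The direct comparison of Ezh1/2 dKO with Ezh2 KO asks what the presence of EZH1 alone changes, and it shares the Ezh2 KO libraries with the comparison to WT. Of all genes tested 488 were higher (3.52%) and 8 lower (0.0577%) in Ezh1/2 dKO. Of the 1356 genes with H3K27me3 kept in Ezh2 KO, 260 were higher (19.2%) and the median log2 fold change was 1.13. Without each library of both lines in turn, the count over all genes was 52 to 236 and that of this state 27 to 124, the lowest without Ezh1/2 dKO replicate 2. Some of these genes passed the filter only through their level in Ezh1/2 dKO. With a mean of at least 5 required over the WT and Ezh2 KO libraries too, 185 of 1119 were higher and the median was 0.95. Under the same filter 108 of the 10613 genes with neither peak in WT were higher, with a median of −0.07. Of the 350 tested genes with SUZ12 and H3K27me3 in WT and no H3K27me3 listed in Ezh2 KO, 14 were higher. This share of 4%, with the filter on all 8 libraries, lay near the 3.52% of all genes tested. Their median was 0.38. From the weakest to the strongest group of the kept state the medians under this added filter were 0.74, 0.82, 1.10, 1.25 and 1.31, over 324, 261, 219, 186 and 129 genes. Under the filter on all 8 libraries alone they were 0.80, 0.97, 1.24, 1.45 and 1.93.

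**Figure D5:**
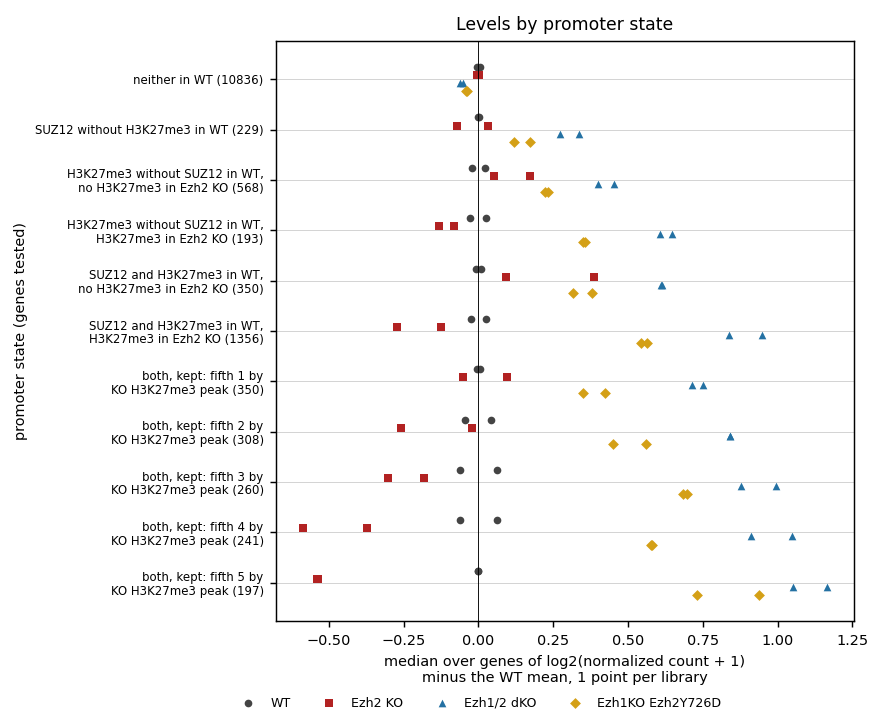
Median over genes of log2(normalized count + 1) minus the WT mean (horizontal axis), 1 point per library, for the promoter states and for the 5 groups of the kept state by peak strength (rows, with the number of genes tested). In the strongest group the Ezh2 KO libraries lie at −0.54 and −0.54 and the Ezh1/2 dKO libraries at 1.17 and 1.05.

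No gene of the Hox list or of a list of 15 Polycomb loci was called between Ezh2 KO and WT. Of 36 Hox genes with counts, 20 were tested, with 2 higher at an unadjusted p under 0.05. Hoxa10, the Hox gene with the highest mean level, was at 2.67 and 0 in WT, at 5.23 and 0 in Ezh2 KO, at 226 and 223 in Ezh1/2 dKO, and at 424 and 493 in Ezh1KO Ezh2Y726D. The filter used all 8 libraries, and 8 of the 20 had a mean of at least 5 over WT and Ezh2 KO alone. The rest passed through their level in the other mutant lines. In the direct comparison 1 of these 8 was higher in Ezh1/2 dKO than in Ezh2 KO, with a median log2 fold change of 0.80 over the 8. Of the 15 Polycomb loci, with Wnt5a and Pax9 among them, 11 were tested and none had an unadjusted p under 0.05 against WT. Of these, 4 had a mean of at least 5 over WT and Ezh2 KO, and 1 of the 4 was higher in Ezh1/2 dKO than in Ezh2 KO. Beside the counts of both lists, 3.52% of all genes tested, with the filter on all 8 libraries alone, were higher in this comparison.

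The markers of ESC identity showed no called change. None of the 30 naive and core pluripotency genes passed the limma test (1 higher and 0 lower at an unadjusted p under 0.05), their median was −0.04, and Esrrb was at 2082 and 2307 in WT and at 2497 and 2280 in Ezh2 KO. Prdm14, which holds ESCs in the naive state, was at 295 and 319 in WT and at 456 and 549 in Ezh2 KO (0.70 ± 0.22, adjusted p = 0.335). The 14 tested primed pluripotency genes had a median of −0.46, none of them called (0 higher and 4 lower at an unadjusted p under 0.05). Dnmt3b, a de novo DNA methyltransferase of that list, was at 1011 and 489 in WT and at 317 and 272 in Ezh2 KO (−1.26 ± 0.36, adjusted p = 0.274), and it was called by DESeq2 (−1.35, adjusted p = 0.00565) and without WT replicate 2 (−1.78, adjusted p = 0.0725). Of the trophectoderm and simple epithelium list 14 were tested, with Tfap2a called higher (0.0937% of all genes tested were) and a median of 0.33. Of the 14, 10 had a log2 fold change above 0 (4 higher and 1 lower at an unadjusted p under 0.05 by limma). Krt18 and Krt8, keratins of simple epithelium, did not pass (1.10 ± 0.26, adjusted p = 0.182, and 1.09 ± 0.33, adjusted p = 0.313), although DESeq2 called Krt18 (adjusted p = 0.0896), with Krt18 at 56.0 and 50.1 in WT and at 134 and 98.7 in Ezh2 KO. Of the 15 tested retinoic acid pathway genes Aldh1a2 was called lower (0.31% of all genes tested were), and the list median was −0.56. The receptor gene Rarg was at 692 and 760 in WT and at 571 and 394 in Ezh2 KO (−0.61 ± 0.19, adjusted p = 0.339).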

How the data were processed

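RNA was sequenced in 8 libraries of 4 lines, 2 per line. The authors made poly-A libraries by SMART-seq2, aligned the reads to mm9, discarded duplicate reads (Picard), counted those in RefSeq genes without regard to strand and divided the counts by DESeq2 size factors, so that the deposited table holds a signal in normalized counts, from which whole reads were recovered. Without strand, reads of overlapping genes cannot be told apart. Every column of values in the deposited table was a library. For ChIP-seq the authors aligned with Bowtie and called peaks with MACS2 in single libraries, and the deposited lists give positions and the −log10 p of each peak.

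Genes were tested with limma 3.58.1 in R 4.3.3 (log2 of the normalized count plus 1, intensity trend, all 8 libraries, mean of at least 5, two-sided) with Benjamini-Hochberg adjustment over 13872 genes. The model was tested on simulated data. edgeR 4.0.16 and DESeq2 1.42.0 on the recovered reads, other pseudocounts, filters and scalings, a replicate block and the omission of each library were alternatives. Intervals of folds are exact conditional Poisson intervals at 95% confidence. Starts came from the GENCODE annotation of mm9, to which 16570 genes were matched by symbol and 793 by a synonym, and 692 were not. Genes were assigned a peak within 5 kb of a start.

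The genes named are Ezh2 and Ezh1, the called genes, with values per library for up to 15 in each direction with the largest change, and members of the 31 gene lists that were called or were among the 4 of the highest mean. Members and lists were chosen with earlier results of these data known, and the immediate early and intestinal lists and their genes after their values were seen. The filter over WT and Ezh2 KO alone, the list medians without a WT library and the group with SUZ12 in both lines were also chosen after seeing the data. Other assays of the series were not analysed here.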

Additional observations from a re-analysis of the deposited data

How the results depend on the processing

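Counts of calls moved with the processing, and the cause was not tested where the setting itself does not give it. Of 13 higher and 43 lower genes in Ezh2 KO, no filter on low values left 7 and 28, edgeR called 7 and 23, DESeq2 45 and 99, the 4 libraries alone 5 and 23, an adjusted p under 0.05 left 6 and 25, and quantile normalization left 25 lower. Between Ezh1/2 dKO and Ezh2 KO, with 488 higher and 8 lower, a mean of at least 20 gave 253 and 5, the 4 libraries alone 1124 and 57, an adjusted p under 0.05 297 and 2, quantile normalization 166 higher and DESeq2 14 lower. Of 260 higher genes with H3K27me3 kept, these settings gave 138 (mean of at least 20), 539 (4 libraries), 156 (adjusted p under 0.05) and 82 (quantile normalization), and 161 remained in a test of genes with a mean of at least 5 over WT and Ezh2 KO. The 4 libraries alone called 5 of the 2-cell-like genes. Without each library, counts were 0 to 53 higher and 6 to 82 lower in Ezh2 KO, both highest without WT replicate 2 and lowest without Ezh2 KO replicate 2, 52 to 236 higher and 1 to 4 lower in Ezh1/2 dKO, 1 to 11 for the 2-cell-like genes and 27 to 124 for the kept state. A replicate block gave 25 lower genes. The numbers were not taken as pairs, since no label ties them, and deviations of same-numbered libraries correlated at −0.065 between WT and Ezh2 KO and at 0.22 between Ezh2 KO and Ezh1/2 dKO. Medians by state kept their sign but for genes with neither peak (0.0050 with quantile normalization, −0.014 to 0.0099 without each library) and SUZ12 alone (−0.077 to 0.032). The kept state moved to −0.13 at a mean of at least 20, −0.14 with quantile normalization, −0.32 with peaks of −log10 p of at least 20 and −0.28 to −0.13 without each library. Genes with H3K27me3 alone that was kept moved to −0.12 with pseudocount 5, −0.042 at a mean of at least 20, −0.080 with quantile normalization, −0.12 with the filter over WT and Ezh2 KO, −0.21 and −0.076 with windows of 1 and 10 kb, and −0.19 to −0.081 without each library. Genes with SUZ12 in both lines moved to −0.36, −0.45 and −0.39 under the first 3 of these, and to −0.56 to −0.40. The states with H3K27me3 no longer listed in Ezh2 KO ranged over 0.093 to 0.38 with SUZ12 and 0.052 to 0.17 without. Chromosome 14 ranged over −0.020 to 0.028 and chromosome X over −0.11 to −0.028. Among the 16 named genes that were not called, DESeq2 called Dnmt3b and Krt18, Dnmt3b was also called without WT replicate 2, and the omission of a library turned the sign for Ezh1 (−0.0083 to 0.72), Eed (−0.23 to 0.082), Eif1a (−0.23 to 0.0072) and Hoxa10 (−0.94 to 1.70, with −0.56 without WT replicate 2). At these depths, genes with few reads had wide intervals.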

Other observations

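Other gene lists were described over the same test, beside the median of −0.01 over all genes. No member was called among 16 primitive endoderm genes (median log2 fold change 0.02), 13 of primitive streak and mesoderm (0.02), 10 of neural progenitors (−0.14), 6 of fibroblasts (−0.22), 5 Y-linked genes (−0.12), 12 LIF and STAT3 targets (−0.08), 19 p53 targets (−0.12), 22 ATF4 targets (−0.02), 22 genes of cholesterol synthesis (−0.16), 19 of the interferon response (−0.10), 9 of DNA methylation (−0.21), 22 clustered protocadherins (0.11), 7 cyclin-dependent kinase inhibitors (0.26), 5 H3K27 acetyltransferases and demethylases (0.04) and 45 ribosomal protein genes (−0.09), and in each of these lists at most 2 members in either direction had an unadjusted p under 0.05 (limma). The 15 genes of FGF and ERK feedback had a median of −0.47 and the 13 Wnt targets of −0.74, also without a call, and at an unadjusted p under 0.05 there were 2 and 3 lower and none higher. The summed level of both lists was higher in WT replicate 1 than in WT replicate 2, at 9422 and 4229 for FGF and ERK feedback (3709.6 and 3689.6 in Ezh2 KO) and at 2675 and 1710.0 for the Wnt targets (1903 and 1994 in Ezh2 KO). Without WT replicate 1 the medians were −0.36 and −0.54, and the part of that library in them was not tested further. Etv5, the most abundant FGF and ERK feedback gene, was at 2864 and 2387 in WT and at 2342 and 2104 in Ezh2 KO. Hmcn1 was the called member among 23 genes of extracellular matrix and adhesion (median 0.00), where 0.0937% of all genes tested were called higher.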
